A study of Mus musculus with 8 samples.

Results

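Cluster 3 and cluster 6 are 2 of the 7 populations of mouse bone marrow stromal cells that the study sorted, and both were gated on CD24 at the cell surface. The comparison used 1 RNA-seq library of each, out of 8 libraries in the series (7 sorted populations and 1 input of bone marrow cells). All samples were labelled as wild type C57BL/6J mice, 6 weeks of age, untreated, with bone marrow derived stromal cells as the cell type. In the sorting scheme of the study, both populations lacked the lineage markers CD31, CD45 and Ter119. Cluster 3 was taken as Ly-6C positive and CD24 positive without CD39 and CD54, and cluster 6 as CD24 positive without Sca-1 and CD39. The labels describe RNA from crushed marrow, whereas the study's methods describe RNA from sorted cells, and they do not say how many animals entered each library. Of the 49315 genes in the files, 10153 were described here, namely those with a level above 2 RPKM (counts per kilobase of exon, scaled to library size) and 50 or more counts in at least 1 of the 2 libraries. The total count on genes was 27102715 for cluster 3 and 31669132 for cluster 6. Without replicates no p-value was given, and a difference was called when RPKM + 1 differed by more than 2-fold. Intervals beside a fold are exact (Clopper-Pearson) 95% intervals of the ratio of the counts and cover counting error only, so they do not hold the variation between animals or sorts. Folds are ratios of RPKM, and log2 ratios are of RPKM + 1 for cluster 3 over cluster 6, so that a negative log2 ratio is a gene higher in cluster 6.

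Bone marrow stroma holds cells of the bone lineage, which secrete type I collagen and osteocalcin and mineralise the matrix, cells of the cartilage lineage, which secrete type II collagen and aggrecan, and fibroblast-like cells around vessels and on bone surfaces, which carry Sca-1 and CD34. CD24 is a small, heavily glycosylated protein anchored to the membrane by a lipid and is used as a marker of progenitors in several tissues. Ly-6C and Sca-1 belong to the Ly6 family of lipid-anchored surface proteins. Stromal cells of the marrow also release cytokines and chemokines that act on blood cells, among them GM-CSF, encoded by Csf2, and CCL2, which attracts monocytes.

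The transcripts of the sort markers were examined first, as a check of the labels and not as a finding. Cd24a, which encodes CD24, was at 49.1 RPKM in cluster 3 (3490 counts) and at 164 RPKM in cluster 6 (11196 counts), a difference of 3.34-fold (95% interval 3.21 to 3.47). Cluster 6 had the highest Cd24a level of the 7 sorted libraries. Cluster 3 was the sixth, within a narrow band with cluster 1 (46.4 RPKM) and cluster 4 (51.8 RPKM) and below cluster 7 (64.9 RPKM), cluster 5 (97.4 RPKM) and cluster 2 (118 RPKM), so the transcript level did not mark the cluster 3 library as CD24 positive. Ly6c1, one of the genes for Ly-6C, was at 403 RPKM in cluster 3, the highest of 7, and at 7.71 RPKM in cluster 6, the lowest of 7. Its neighbour Ly6c2 had 36.3 RPKM in cluster 3 and 72 RPKM in cluster 6 (log2 ratio -0.97), which was within 2-fold. The coding sequences of Ly6c1 and Ly6c2 are identical at 97.7% of 396 positions and share 46.7% of their stretches of 50 bases, so the assignment of reads between them is uncertain. Ly6a, which encodes Sca-1, was at 917 RPKM in cluster 3 and 5.96 RPKM in cluster 6, again the highest and the lowest of 7, and the gate of cluster 6 excluded Sca-1. Both markers that the gate of cluster 3 excluded were lowest of 7 in that library: Entpd1 (CD39) was at 2.23 RPKM against 5.41 in cluster 6, and Icam1 (CD54) at 11.2 RPKM against 23.5. Il1r2, the decoy receptor for interleukin 1 (CD121b), was also lowest in cluster 3, with 21.6 RPKM against 87.6. Of the lineage markers, Ptprc (CD45) was at 1.66 and 4.81 RPKM and Pecam1 (CD31) at 2.07 and 1.57 RPKM in cluster 3 and cluster 6. Pdgfra, a growth factor receptor of marrow stromal cells, was at 17.8 and 8.91 RPKM (log2 ratio 0.92).

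**Figure D1:**
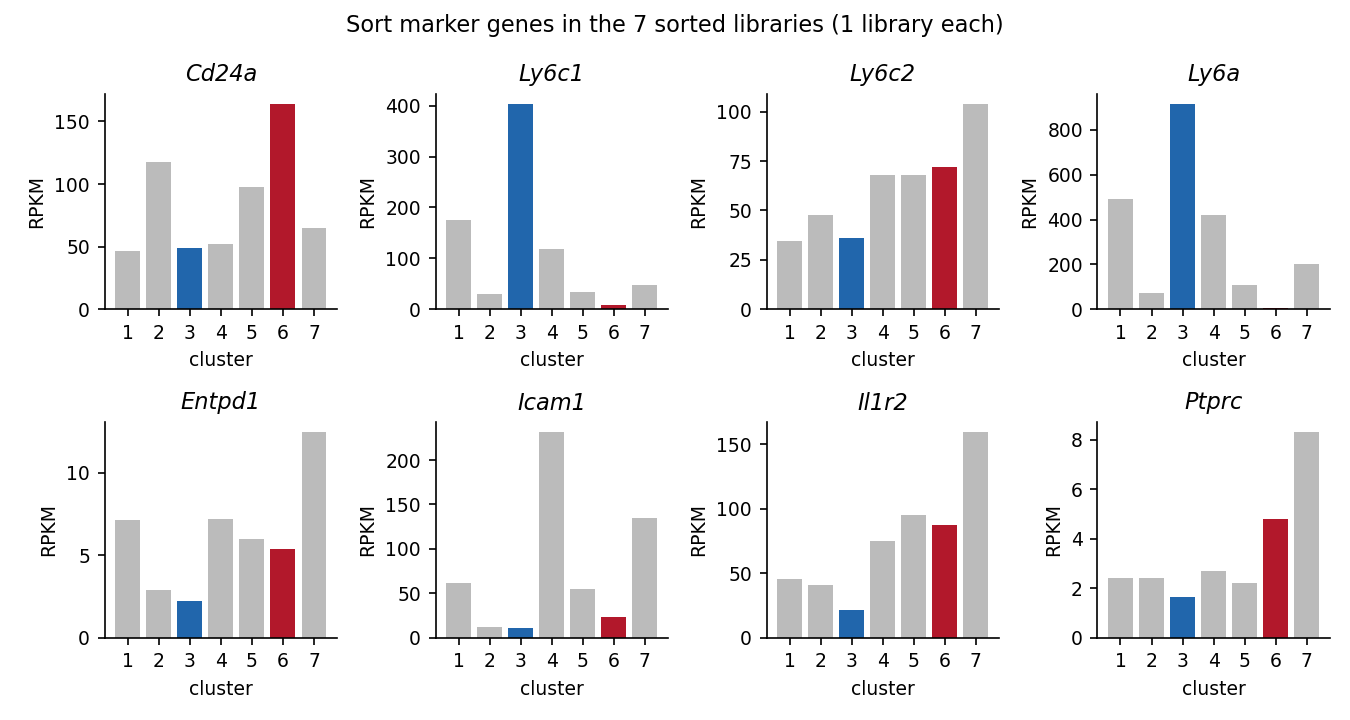
Levels in RPKM of 8 genes for surface proteins in the 7 sorted libraries, 1 bar per library with no error bar because each population had 1 library; cluster 3 is blue, cluster 6 red and the others grey. Cd24a is highest in cluster 6 (164 RPKM) and near the lowest in cluster 3 (49.1 RPKM), while Ly6c1 and Ly6a are highest in cluster 3 and lowest in cluster 6.

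The upstream sequences of Ly6c1 and Ly6c2, neighbours on chromosome 15 with near-identical coding sequences, are shown as a description. They were read from RefSeq promoters (build GRCm38.p6) and lie before every start of transcription listed for the gene there and in the files. Both are on the minus strand and are written 5′ to 3′ along it, at chr15:75048838-75048987 for Ly6c1 and chr15:75111972-75112121 for Ly6c2. The RUNX core (ACCACA), the AP-1 site (TGANTCA), the Dlx core (TAATTG), the SOX core (ACAANG), the TATA box (TATAAA) and, by name, the NF-kB motif were searched on both strands, and capitals mark the match that falls in these stretches, a TATAAA.
Ly6c1: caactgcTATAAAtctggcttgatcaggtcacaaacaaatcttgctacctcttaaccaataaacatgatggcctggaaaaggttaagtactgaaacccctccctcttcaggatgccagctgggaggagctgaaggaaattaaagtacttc
Ly6c2: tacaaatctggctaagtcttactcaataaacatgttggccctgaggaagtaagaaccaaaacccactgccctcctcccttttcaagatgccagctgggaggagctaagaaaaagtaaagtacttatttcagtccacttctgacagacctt
The TATAAA match of Ly6c1 lies 143 to 138 bases upstream of the start, and no such match was found in the 250 bases upstream of Ly6c2. A match to ACCACA at 179 to 174 bases upstream of Ly6c2 falls outside the stretch shown. The letters TATAAA occur in 12.4% and ACCACA in 14% of the 32851 promoter windows in the table. A link between these letters and the levels of the 2 genes, between which reads are split with uncertainty, was not tested.

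Across the described genes, 1658 (16.3%) differed by more than 2-fold: 784 (7.72%) were higher in cluster 3 and 874 (8.61%) were higher in cluster 6. The median log2 ratio was -0.01 and the quartiles were -0.43 and 0.38. Large differences were few, with 440 genes (4.33%) more than 4-fold apart, 240 of them higher in cluster 3 and 200 in cluster 6, 33 and 32 more than 16-fold apart, and 5 and 10 more than 64-fold. The balance of directions depended on the scaling of the libraries. With TMM factors 47.3% of the called genes were higher in cluster 3, and with the total count alone 67.6% were (1194 higher in cluster 3, 573 in cluster 6), because that scaling moved the median of all genes by 0.26 on the log2 scale towards cluster 3. Of the 11 gate and surface genes, 11 passed the filter, 2 were called higher in cluster 3 and 4 in cluster 6. In bulk libraries, fewer cells of a type and less RNA per cell cannot be told apart.

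**Figure D2:**
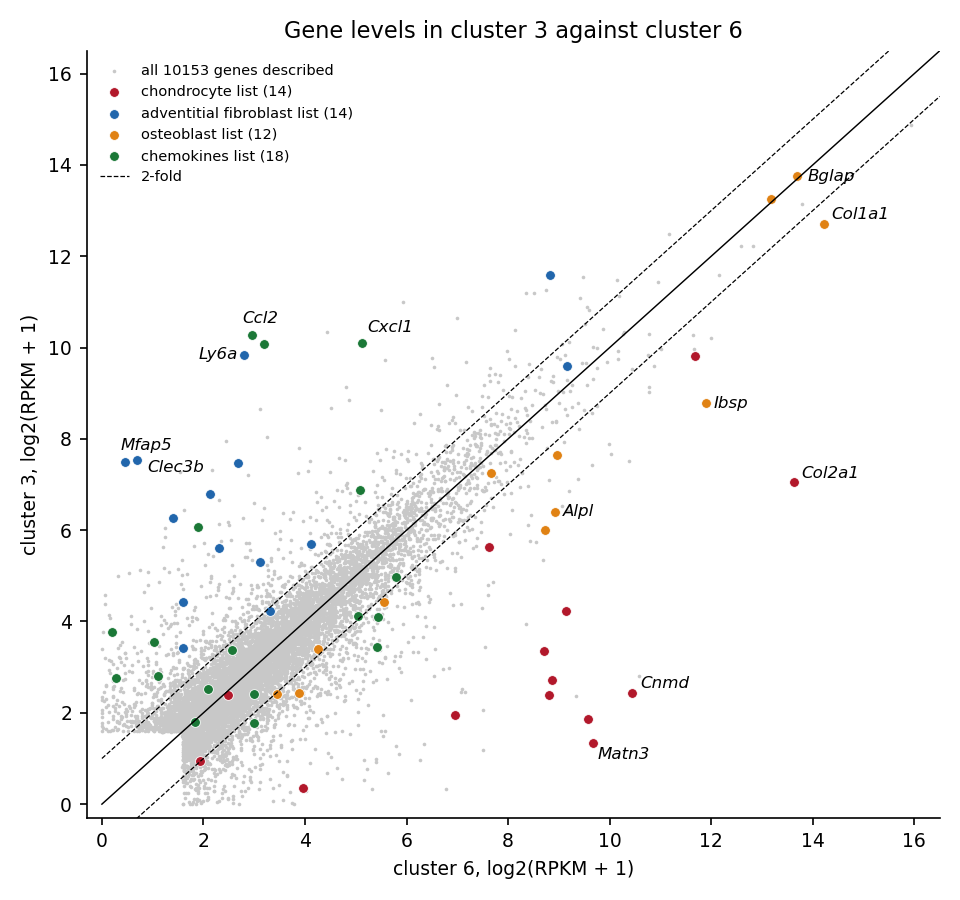
Level of each of the 10153 described genes in cluster 3 (vertical) against cluster 6 (horizontal), both as log2(RPKM + 1); the solid line is equality, dashed lines are 2-fold, and coloured points are 4 gene lists. Most chondrocyte genes fall far below the lines on the cluster 6 side. Most adventitial fibroblast genes and some chemokines lie far above on the cluster 3 side, and Bglap lies on the line of equality.

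Several abundant bone matrix genes were higher in cluster 6, but osteocalcin was not. Of the 15 genes in this list, all passed the filter, 7 were higher in cluster 6, 1 in cluster 3 and 7 within 2-fold, with a median log2 ratio of -0.66 beside -0.01 for all described genes. Bglap, which encodes osteocalcin, the calcium-binding protein made by mature osteoblasts (chr3:88383501-88384464, minus strand), was at 13802 RPKM in cluster 3 (234831 counts) and 13209 RPKM in cluster 6 (215913 counts), a log2 ratio of 0.06. Its copy Bglap2 was at 9793 and 9258 RPKM and the related Bglap3 at 17.4 and 17.6 RPKM. The coding sequence of Bglap2 is identical to that of Bglap at 98.6% of 288 positions, so reads of these genes cannot be split with certainty, but the log2 ratios of Bglap2 and Bglap3, 0.08 and -0.02, were near 0 as well. Cluster 3 and cluster 6 had the highest osteocalcin levels of the 7 libraries. Clusters 5, 2, 7, 1 and 4 held 6327, 2966, 248, 212 and 186 RPKM of Bglap. Ifitm5, a membrane protein of osteoblasts, was similar too, at 152 RPKM in cluster 3 and 201 RPKM in cluster 6, and the highest of the other 5 libraries reached 62.6 RPKM.

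In contrast, Ibsp, which encodes bone sialoprotein, a nucleator of mineral (chr5:104299171-104311469, plus strand), was at 439 RPKM in cluster 3 and 3822 RPKM in cluster 6 (24994 and 209064 counts), 8.71-fold (95% interval 8.59 to 8.82) higher in cluster 6. The level in cluster 3 lay within the range of the other 5 libraries (164 to 668 RPKM), and cluster 6 lay above all of them. Col1a1, the main chain of type I collagen, was at 6703 RPKM in cluster 3 and 19100.3 in cluster 6, 2.85-fold (95% interval 2.84 to 2.86) higher in cluster 6, and its partner Col1a2 was at 4772 and 7288 RPKM (log2 ratio -0.61). Spp1, which encodes osteopontin, was at 1233 and 3210.2 RPKM, 2.6-fold (95% interval 2.58 to 2.63) higher in cluster 6. Also higher in cluster 6 were Tnn, encoding tenascin N (log2 ratio -3.20), Omd, encoding osteomodulin (-2.66), Chad, encoding chondroadherin (-1.69), and Mgp, an inhibitor of mineralisation (-1.18). At 241 and 547 RPKM, Mgp was nevertheless below the 661 to 2211 RPKM of the other 5 libraries. Sparc, an abundant collagen-binding protein, and Bgn, the proteoglycan biglycan, stayed within 2-fold (log2 ratios -0.66 and -0.45). Kera, the proteoglycan keratocan, was the only gene of the list called higher in cluster 3, at 43.5 RPKM against 3.28.

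The upstream sequences of Bglap and Ibsp are shown because these secreted proteins of osteoblasts are both high in cluster 6 and differ in cluster 3. Bglap is on the minus strand of chromosome 3 (chr3:88384467-88384616) and Ibsp on the plus strand of chromosome 5 (chr5:104299037-104299170), from RefSeq on GRCm38.p6, and the Ibsp stretch ends before the gene start in the files. Capitals mark matches on either strand to the RUNX core (ACCACA), the Dlx core (TAATTG), the SOX core (ACAANG), the AP-1 site (TGANTCA) or TATAAA.
Bglap: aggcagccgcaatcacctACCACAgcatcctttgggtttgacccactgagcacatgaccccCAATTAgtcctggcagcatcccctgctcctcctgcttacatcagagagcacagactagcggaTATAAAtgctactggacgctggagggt
Ibsp: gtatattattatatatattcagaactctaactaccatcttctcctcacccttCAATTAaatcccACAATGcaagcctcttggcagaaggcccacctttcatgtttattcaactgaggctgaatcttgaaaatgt
Bglap holds ACCACA at 132 to 127 bases upstream of its start, the reverse complement of TAATTG at 89 to 84 and TATAAA at 27 to 22. In Ibsp the reverse complement of TAATTG lies 198 to 193 bases upstream and a SOX core match at 186 to 181, and a further SOX core match (76 to 71) and a match to TATAAA (28 to 23) fall outside the stretch shown. None of these matches overlaps another. In the 250 bases upstream, 14% of all promoter windows hold the RUNX core, 7.17% the Dlx core, 36.3% the SOX core, 6.75% the AP-1 site and 12.4% TATAAA. A match is a description of letters and was not linked to binding.

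Most genes that carry out mineralisation were higher in cluster 6. Of 11 measured genes 10 passed the filter, 7 were higher in cluster 6 and 0 in cluster 3 (median log2 ratio -1.50 over those that passed and -1.44 over all 11). Alpl, the alkaline phosphatase that releases phosphate (chr4:137741733-137796384, minus strand), was at 83.9 RPKM in cluster 3 and 484 RPKM in cluster 6, 5.76-fold (95% interval 5.64 to 5.89) higher in cluster 6, against 22.1 to 115 RPKM in the other 5 libraries. Smpd3, a sphingomyelinase required for mineralisation, was at 52.7 and 376 RPKM, and Phospho1, which supplies phosphate inside matrix vesicles, at 1.09 and 5.2 RPKM. Nt5e (CD73), which makes adenosine from AMP, was at 11.7 and 78.7 RPKM. Phex, a peptidase of late osteoblasts, had a log2 ratio of -1.44, and Ahsg (fetuin-A) -1.71 on 3 and 98 counts. Ank (Ankh), which exports pyrophosphate, was at 34.4 and 69.9 RPKM, just past 2-fold, and Enpp1, which produces it, just short of it (log2 ratio -0.96). The phosphate transporters Slc20a1 and Slc20a2 had log2 ratios of 0.04 and 0.07. Abcc6 was below the filter, with 0 counts in cluster 3, which allows up to 3 counts, and 16 counts in cluster 6.

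Among osteogenic transcription factors, 13 of 18 passed the filter, with 6 higher in cluster 6 and 1 in cluster 3 (median log2 ratio -0.88 over those that passed and -0.14 over all 18). Sp7, the osteoblast factor osterix, was at 20.5 RPKM in cluster 3 and 46.2 in cluster 6, and Runx2, which acts upstream of it, at 4.3 and 9.86 RPKM. Sox9, the master factor of cartilage, was at 48.6 and 196 RPKM, 4.04-fold (95% interval 3.92 to 4.16) higher in cluster 6. Runx3 (log2 ratio -1.51), Mef2c (-1.27) and Cbfb (-1.03), the partner of the RUNX factors, were also higher in cluster 6. Msx1 was higher in cluster 3 (13.6 and 4.31 RPKM). Among those within 2-fold were Dlx5 (-0.63), Runx1 (0.14), Dlx3 (0.31), Atf4 (0.69) and Twist1 (0.73). Dlx3, like osteocalcin, was highest in cluster 3 and cluster 6, at 19.2 and 15.4 RPKM against 1.54 to 5.71 RPKM in the others. Dlx6, Alx4, Zbtb16, Msx2 and Twist2 were below the filter.

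Osteocytes are osteoblasts buried in the matrix, and Dmp1 was the most abundant of their genes in both libraries. Dmp1, a matrix protein of young osteocytes, was at 199.9 RPKM in cluster 3 and 497 RPKM in cluster 6, 2.48-fold (95% interval 2.44 to 2.53) higher in cluster 6, and at no more than 47.4 RPKM in the other 5 libraries. Sost (the Wnt inhibitor sclerostin) had 1 count in cluster 3 and 15 in cluster 6, and Fgf23, a phosphate-regulating hormone, 1 and 7. In the whole list of 11, 8 passed the filter, Dmp1 and Phex were called higher in cluster 6 and Cd44 in cluster 3. Cd44, the hyaluronan receptor, was at 112 RPKM in cluster 3, the highest of 7, and 28.8 RPKM in cluster 6. Mepe (log2 ratio -0.93), Irx5 (-0.81), Dkk1 (-0.78), Fam20c (-0.66) and Pdpn (0.99) were within 2-fold, and Reln was below the filter. Dkk1, an inhibitor of Wnt signals, was at 4.15 and 7.82 RPKM, above the 2.35 RPKM that was the most in any other sorted library.

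Cartilage genes had some of the largest ratios towards cluster 6. In the chondrocyte list, 12 of 14 genes were higher in cluster 6 and 0 in cluster 3, with a median log2 ratio of -5.18. Matn3, which encodes the cartilage matrix protein matrilin 3 (chr12:8947929-8972028, plus strand), had 128 counts (1.54 RPKM) in cluster 3 and 64618 counts (811 RPKM) in cluster 6, 525-fold (95% interval 442 to 630.0) higher in cluster 6. Cnmd, the cartilage glycoprotein chondromodulin (Lect1 in the name table), was at 4.41 and 1393 RPKM, 316-fold (95% interval 277 to 361) higher in cluster 6. Col2a1, the chain of type II collagen, was at 132 RPKM in cluster 3 and 12621 RPKM in cluster 6, where it was among the 5 most abundant genes with 2003208 counts. All 3 chains of type IX collagen were among the 20 genes furthest to the cluster 6 side, Col9a3 at 5.96 and 1531 RPKM, Col9a1 at 2.62 and 759 RPKM and Col9a2 at 4.19 and 648 RPKM. Col10a1, Panx3 and Ihh, known from hypertrophic or prehypertrophic chondrocytes, were also higher in cluster 6. No separate list of hypertrophic genes was counted. Col10a1, type X collagen, was at 4.26 and 446 RPKM, Panx3, a channel protein, at 1.26 and 181 RPKM, and Ihh, the hedgehog signal of prehypertrophic chondrocytes, at 0.274 and 14.6 RPKM. Acan (aggrecan, log2 ratio -5.36), Hapln1 (its link protein, -6.15), Epyc (epiphycan, -5.01), Snorc (-4.91) and Comp (a cartilage oligomer, -1.85) were higher in cluster 6 as well. Comp was the most abundant gene of the chondrocyte list in cluster 3, above Col2a1. The factors Sox5 and Sox6 stayed within 2-fold, with log2 ratios of -0.08 and -0.97. The remaining genes among the 20 were Matn1 (-6.45), Mia1 (-5.45), R3hdml (-5.29), Fxyd2 (-5.04), Il17b (-4.98), A330049M08Rik (-4.95), Chadl (-4.75) and Crispld1 (-4.70).

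Cluster 2 held similar levels of cartilage genes. The median level of the chondrocyte list was 457 RPKM in cluster 6 and 500.1 RPKM in cluster 2, and it was 67.7, 11.8, 10.3 and 8.98 RPKM in clusters 4, 7, 5 and 1 and 4.34 RPKM in cluster 3. Cluster 3 was the lowest of the 7 libraries for 6 of the 14 genes, and cluster 6 the highest for 9. Some receptors of bone and cartilage cells were also higher in cluster 6. Fgfr3, the FGF receptor that restrains growth plate cartilage, was at 1.42 RPKM in cluster 3 and 54.7 in cluster 6, and Pth1r, the receptor of parathyroid hormone, at 63.6 and 421 RPKM, 6.62-fold (95% interval 6.43 to 6.82) higher in cluster 6. With Fgfr2 (log2 ratio -1.61) these were the 3 called genes among the 8 of 12 hormone and growth factor receptors that passed the filter. The other 5 were within 2-fold. The median log2 ratio of the list was -0.78 over those that passed and 0.10 over all 12.

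Collagens went in both directions. In the list of 18 other collagens, 7 were higher in cluster 6 and 5 in cluster 3, with a median log2 ratio of -0.25 that changed sign with the total count scaling. Those higher in cluster 6 included Col11a2 at 183 and 1327 RPKM and Col11a1 at 92.1 and 532 RPKM, the fibrillar partners of type II collagen, with Col12a1 (-2.37) and Col16a1 (-1.81). Those higher in cluster 3 were Col3a1, the fibrillar collagen of soft connective tissue, at 2356 and 361 RPKM, Col14a1 (log2 ratio 3.94), Col8a1 (2.66) and the basement membrane chains Col4a1 (2.68) and Col4a2 (1.72). Among 17 genes that modify, fold and crosslink collagen, 6 were higher in cluster 6 and 1 in cluster 3 (median log2 ratio -0.71). Serpinh1, the collagen chaperone HSP47, was at 775 and 1873 RPKM, and the crosslinking enzymes Loxl4 and Loxl3 had log2 ratios of -3.76 and -1.52, while Loxl1, which acts on elastin, had 2.01 and was the gene of the list higher in cluster 3. In the tendon list, 4 of 7 genes were higher in cluster 3, among them Tnmd (tenomodulin, 51.6 and 6.4 RPKM) and Thbs4 (212 and 53 RPKM), and Fmod (fibromodulin, 559 and 1739.6 RPKM) was higher in cluster 6.

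**Figure D3:**
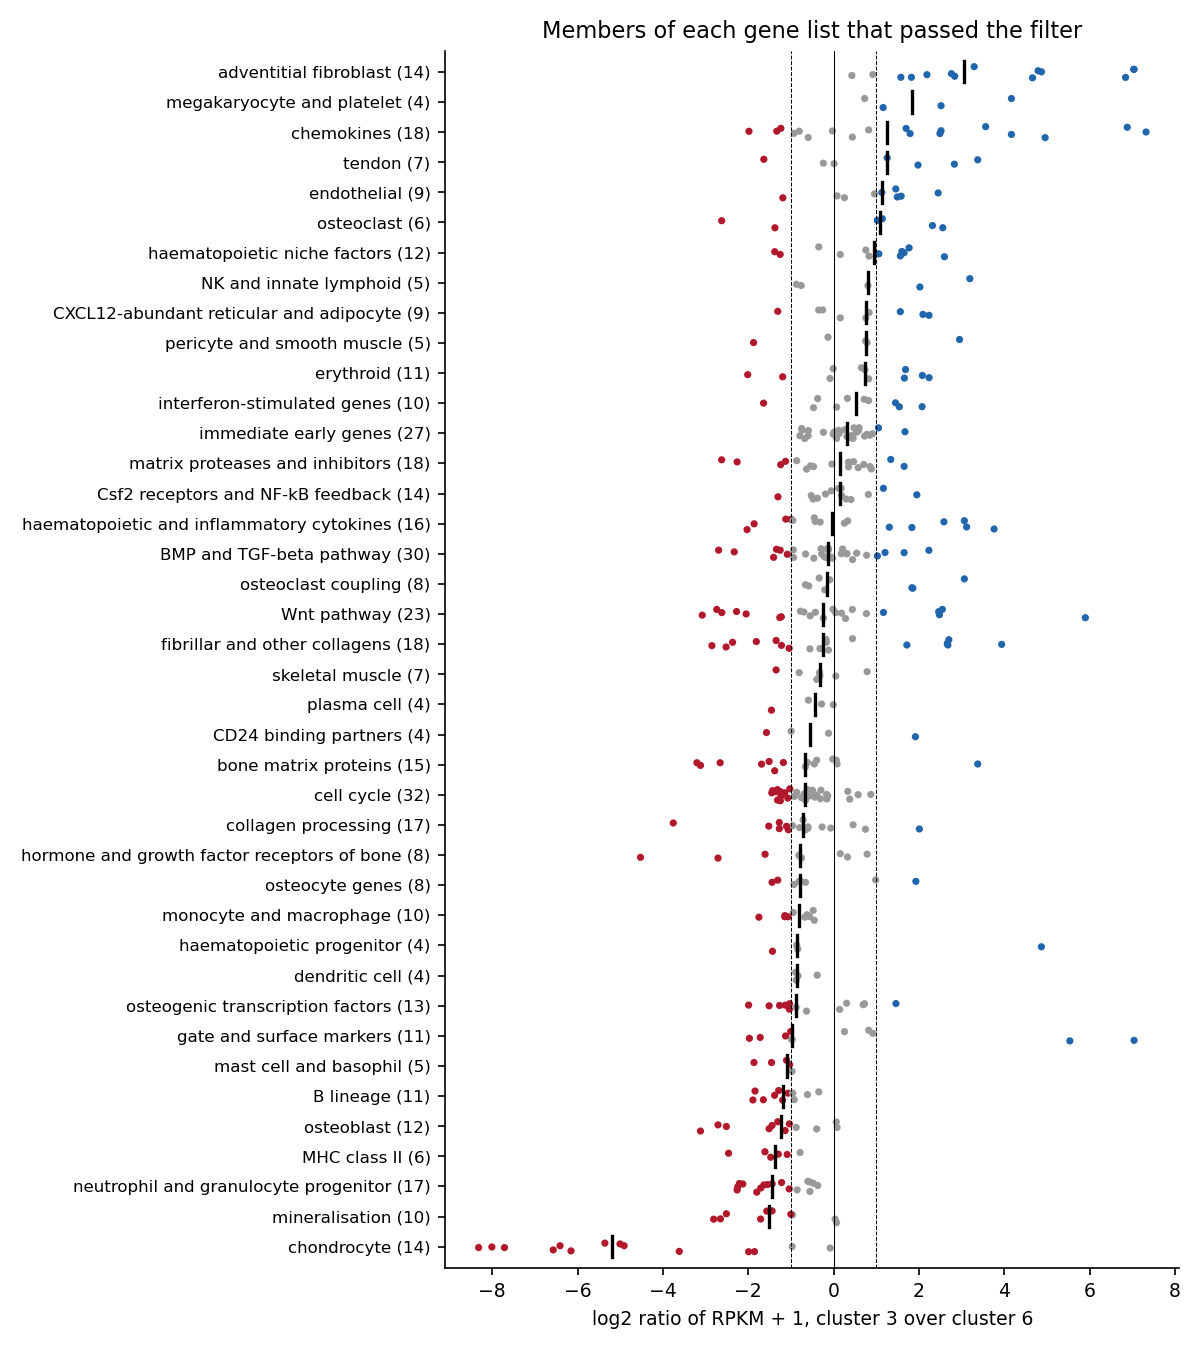
Log2 ratio of RPKM + 1, cluster 3 over cluster 6, for each member that passed the filter in the gene lists with 4 or more such members (number in brackets), ordered by the median (black bar); blue points are more than 2-fold higher in cluster 3, red points more than 2-fold higher in cluster 6, grey points within 2-fold. The chondrocyte list lies furthest to the cluster 6 side (median -5.18) and the adventitial fibroblast list furthest to the cluster 3 side (median 3.07).

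Genes of adventitial fibroblasts, the connective tissue cells that carry Sca-1 and CD34, stood on the cluster 3 side. Of 14 genes in the list 12 were higher in cluster 3 and 0 in cluster 6 (median log2 ratio 3.07); the list holds Ly6a, which the gate of cluster 6 selected against. Mfap5, a microfibril protein, had 17748 counts (179.6 RPKM) in cluster 3 and 36 counts (0.379 RPKM) in cluster 6, 474-fold (95% interval 342 to 676) higher in cluster 3. Clec3b, which encodes the plasminogen-binding protein tetranectin, had 5018 and 16 counts, 301-fold (95% interval 185 to 528) higher in cluster 3. Cd34, a sialomucin on progenitors and fibroblasts, was at 76.2 and 1.64 RPKM. Dpt (dermatopontin) was at 177 and 5.42 RPKM, Dpp4 (CD26), a peptidase on interstitial progenitors, at 20.6 and 2.02 RPKM, and Pi16 at 9.69 and 2.02 RPKM. Gsn, which encodes the actin-severing protein gelsolin and was the most abundant of the list in cluster 3, was at 3082 and 453 RPKM. Fn1 (fibronectin) and Pdgfra were within 2-fold. The median level of the list was 93 RPKM in cluster 3 and 4.69 RPKM in cluster 6, against 63.5, 39, 35.9, 14 and 10.6 RPKM in clusters 1, 4, 7, 5 and 2. Cluster 6 was the lowest of 7 for 9 of the 14 genes and cluster 3 the highest for 8.

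Among the other genes of the 20 furthest to the cluster 3 side, Cd248 (endosialin) was at 153 and 1.89 RPKM, Procr, the endothelial protein C receptor, at 159 and 3.5 RPKM, and Igfbp6, which binds insulin-like growth factors, at 2050 and 59.7 RPKM. Nov, a secreted protein of the CCN family, was at 247 and 4.47 RPKM and Fbln2 (fibulin 2) at 85.8 and 2.07 RPKM. Cd55, which speeds the decay of complement convertases, had a log2 ratio of 4.66, Serping1, the inhibitor of C1, 4.79, and Cfd, the protease complement factor D, 4.67. Tspan15, a tetraspanin (65 and 1.36 RPKM), and Scara5, a scavenger receptor (log2 ratio 4.61), were the remaining ones besides Ly6a, Ly6c1, the fibroblast genes above and the Wnt antagonist and chemokines below. Dcn, the proteoglycan decorin, which was the most abundant gene of cluster 3 after mmu-mir-689-2, Bglap, Bglap2, Sparc and Col1a1, was at 5763 RPKM against 2293 in cluster 6. Each of these 5 was also among the 6 most abundant of cluster 6, together with Col2a1, and mmu-mir-689-2, a short locus with 30196 and 62188 RPKM, ranged up to 1682510 RPKM in the other sorted libraries.

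Chemokines showed the next contrast. Of 28 measured chemokine genes 18 passed the filter, 9 were higher in cluster 3 and 3 in cluster 6 (median log2 ratio 1.26 over those that passed and 0.32 over all 28). Ccl2, which attracts monocytes (chr11:82035571-82037453, plus strand), had the highest log2 ratio of all described genes with a symbol. It was at 1244 RPKM in cluster 3 (38976 counts) and 6.78 RPKM in cluster 6 (204 counts), 184-fold (95% interval 160.0 to 212) higher in cluster 3. Clusters 1, 4, 7, 5 and 2 held 332, 232, 175, 106 and 44.8 RPKM of Ccl2, so that cluster 3 was above and cluster 6 below all of them. Ccl7, its neighbour on chromosome 11 and also an attractant of monocytes, was at 1075 and 8.12 RPKM, and Cxcl1, an attractant of neutrophils, at 1088 and 34.1 RPKM. Cxcl2 and Cxcl3, close relatives of Cxcl1, had log2 ratios of 1.79 and 1.70, and Ccl8 and Ccl11 3.56 and 2.49. Pf4 and Ppbp, chemokines of platelets, were the other called genes on that side, while Cxcl14 (-1.98), Ccl6 (-1.33) and Cx3cl1 (-1.24) were higher in cluster 6. Cxcl12, which retains blood stem cells in the marrow, was low in both at 11.5 and 6.04 RPKM.

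The upstream sequence of Cxcl1 is shown as an example from the chemokines, and those of Ccl2 and Ccl7 are not shown. It lies on the plus strand of chromosome 5 at chr5:90891091-90891240 (RefSeq, GRCm38.p6). Capitals mark matches to the NF-kB motif, searched by name on either strand.
Cxcl1: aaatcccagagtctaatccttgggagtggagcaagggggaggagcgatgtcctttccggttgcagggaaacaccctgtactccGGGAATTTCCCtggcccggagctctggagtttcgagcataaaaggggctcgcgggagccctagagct
A pair of overlapping NF-kB matches spans 71 to 61 bases upstream of the RefSeq start, and 7.25% of the 32851 windows hold such a match in the 250 bases upstream. Nfkbia, a target and inhibitor of NF-kB, was at 969 RPKM in cluster 3, the highest of 7, and 250.1 RPKM in cluster 6, the lowest. Nfkb1 was higher in cluster 3 as well (log2 ratio 1.17), whereas Rela (0.29), Nfkb2 (-0.52), Nfkbiz (0.19) and Bcl3 (0.12) were within 2-fold. In the list of Csf2 receptors and NF-kB feedback genes, 14 of 16 passed the filter. Of these, 2 were higher in cluster 3, 1 in cluster 6 and 11 within 2-fold (median log2 ratio 0.15). The motif was chosen after values were seen, and a link between it and the levels was not tested.

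Cytokines that act on blood cells went in both directions, and 16 of 25 passed the filter, with 6 higher in cluster 3 and 4 in cluster 6. The median log2 ratio of those that passed was -0.03, and its sign changed with the scaling and the filter. Csf2, which encodes GM-CSF, a growth factor of granulocytes and macrophages (chr11:54247271-54249667, minus strand), had 870 counts (39.5 RPKM) in cluster 3 and 42 counts (1.98 RPKM) in cluster 6, 19.9-fold (95% interval 14.6 to 27.8) higher in cluster 3. The other 5 libraries held 0.967 to 2.76 RPKM, so cluster 6 lay among them and cluster 3 stood apart. Its receptor chain Csf2ra was at 12.8 and 33 RPKM. Csf1, the macrophage growth factor, was at 73.6 RPKM in cluster 3, the highest of 7, and 7.91 RPKM in cluster 6, 9.3-fold (95% interval 8.74 to 9.9) higher in cluster 3. Il34, the other ligand of the Csf1 receptor, was at 8.97 and 1.79 RPKM, Csf3 (G-CSF) at 5.24 and 1.53 RPKM, and Il6 at 41.3 and 6.04 RPKM. Il33, an alarmin held in the nucleus of stromal cells, had 809 and 22 counts, 35.3-fold (95% interval 23.2 to 56.7) higher in cluster 3. Its receptor gene Il1rl1 (ST2) was also higher there, at 15.2 and 0.768 RPKM.

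On the other side, Osm (oncostatin M) was at 6.78 RPKM in cluster 3 and 30.7 in cluster 6, Il1b at 19.98 and 75.3 RPKM, Il1a at 1.55 and 4.1 RPKM and Tnfsf13b (BAFF) at 0.391 and 2.03 RPKM. Oncostatin M and interleukin 1 beta are made mainly by myeloid cells, and Osm, Il1b and Tnfsf13b were lowest of 7 in cluster 3. Il11 (log2 ratio -0.95), Lif (-0.45), Tnf (-0.43), Il12a (-0.31), Il18 (0.25) and Il15 (0.33) were within 2-fold. Il10, Il5, Il4, Il7, Tslp and Ifng were below the filter, and Il3, Il13 and Il17a had 0 counts in both libraries, which allows up to 3 counts in each.

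The called genes of the Wnt and BMP pathways went in both directions, and the 3 called osteoclast coupling genes were higher in cluster 3. Osteoclasts are formed under CSF1 and RANKL, and osteoprotegerin, encoded by Tnfrsf11b, blocks RANKL. Tnfrsf11b was at 72.2 RPKM in cluster 3 and 114 in cluster 6, within 2-fold and above the 45.4 RPKM of the next library, and Csf1, Il34 and Sema3a (log2 ratio 1.86) were the 3 of 8 coupling genes higher in cluster 3. In the Wnt pathway 5 of 23 genes past the filter were higher in cluster 3 and 7 in cluster 6 (median log2 ratio -0.24 over those that passed and -0.03 over all 37, the former above 0 with the total count scaling). Sfrp4, a secreted antagonist of Wnt, was at 1288 RPKM in cluster 3, the highest of 7, and 20.6 RPKM in cluster 6, 62.6-fold (95% interval 58.7 to 66.8) higher in cluster 3. Frzb and Wif1, antagonists found in cartilage, went the other way at 3.5 and 37 RPKM and at 68 and 333 RPKM. Dkk2 and Rspo2 were higher in cluster 3 (log2 ratios 2.48 and 2.46), and Wnt5b and the receptor Fzd9 higher in cluster 6 (-2.74 and -2.62). In the BMP and TGF-beta pathway, 4 of 30 genes past the filter were higher in cluster 3 and 6 in cluster 6 (median -0.14 over those that passed and -0.12 over all 35, the former above 0 with the total count scaling). The ligands Bmp4 (1.65) and Inhba (1.21) and the antagonists Fst (2.23) and Chrd (1.03) were higher in cluster 3, and Gdf10 (-2.69), the antagonist Nog (-2.33), Bmp7 (-1.41) and Tgfb1 (-1.25) were among those higher in cluster 6. Bmp2, a strong inducer of bone, was at 55.8 and 65 RPKM.

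Factors of the blood stem cell niche included 6 genes higher in cluster 3 and 2 higher in cluster 6 among 12 that passed the filter (median log2 ratio 0.95 over those that passed and 0.75 over all 16). Igf1 (10.6 and 0.912 RPKM), the transcription factor Ebf1 (13.8 and 3.34 RPKM), the growth factor Ptn (15.3 and 4.38 RPKM), Adipoq (log2 ratio 1.56), Vcam1 (1.06) and Bmp4 were higher in cluster 3, and Spp1 and Tgfb1 in cluster 6. Lepr, the leptin receptor of reticular cells, was at 4.48 and 3.92 RPKM. Of 18 proteases and inhibitors of the matrix, the gelatinase Mmp9 (-2.62), the collagenases Mmp8 (-2.26) and Mmp13 (-1.24) and the stromelysin Mmp3 (-1.13) were higher in cluster 6, Timp2 (1.65) and Mmp19 (1.34) were higher in cluster 3, and the abundant Mmp2 was equal (334 and 344 RPKM).

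The called genes of cell division were all higher in cluster 6. Of 32 cell cycle genes past the filter, 11 were higher in cluster 6 and 0 in cluster 3 (median log2 ratio -0.67 over those that passed and -0.66 over all 33). Mcm2, part of the replicative helicase, was at 2.27 and 7.81 RPKM, Rrm2, which supplies deoxynucleotides, at 16.2 and 42.8 RPKM, and Plk1, a mitotic kinase, at 2.63 and 8.01 RPKM. The inhibitor Cdkn1a (p21), the most abundant of the list, was at 351 and 279 RPKM. Of 27 immediate early genes, which respond within minutes to handling of cells, 25 were within 2-fold, as were 8495 of all 10153 described genes, Fos being at 1349 and 929 RPKM, and Klf4 (1.05) and Nr4a3 (1.67) were higher in cluster 3. In the 10 interferon-stimulated genes past the filter, Bst2 (41.1 and 9.0 RPKM), Isg15 (log2 ratio 1.54) and Ifit1 (1.45) were higher in cluster 3 and Ifit3 (-1.64) in cluster 6. Of the binding partners of CD24, Selp (P-selectin) was at 6.57 and 1.0 RPKM, Siglecg at 0.809 and 4.38 RPKM and Hmgb1 at 58.8 and 63.9 RPKM.

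Markers of other cell types were present in both libraries in spite of the lineage gate, and they moved with the comparison. The neutrophil and granulocyte progenitor list summed to 11466 RPKM in cluster 3 and 20131 RPKM in cluster 6, its most abundant gene being S100a9 in both (4759 and 6152 RPKM). In that list all 17 genes passed the filter, 11 were higher in cluster 6, none in cluster 3, and none was at 0. Ltf, Mpo and Ngp had log2 ratios of -2.25, -2.13 and -1.80. Among all described genes 8.61% were higher in cluster 6 and 7.72% in cluster 3. The monocyte and macrophage list summed to 549.7 and 1813 RPKM, led by Lyz2 (521 and 1756 RPKM). Of its 16 genes 10 passed the filter, with 4 higher in cluster 6, and Vsig4 was at 0 counts in cluster 3. The B lineage list summed to 156 and 355 RPKM, led by Igkc in cluster 3 (54.7 RPKM) and by Ighm in cluster 6 (130.2 RPKM). Of its 16 genes 11 passed the filter, with 7 higher in cluster 6, and none of the 16 was at 0. MHC class II genes followed, with 5 higher in cluster 6 among the 6 of 7 that passed the filter, and Ptprc was 4.81 RPKM there. Of 14 mast cell and basophil genes 5 passed the filter, with 4 higher in cluster 6 (summed 38.3 and 114 RPKM, led by Prss34 and Hdc). Mcpt4, Tpsb2 and Cma1 were at 0 counts in both and Mcpt1 at 0 in cluster 6. T cell genes summed to 4.54 and 10.1 RPKM over 16 genes, and Cd3e, a defining one, was at 0.0712 and 0.204 RPKM. Of the genes described above, Mmp8, Mmp9, Osm, Il1b and the cell cycle genes are also active in developing blood cells, and the part of such cells in their difference was not tested.

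Haemoglobin, platelet and some endothelial genes were higher in cluster 3. The erythroid list summed to 7252 RPKM in cluster 3 and 1958 RPKM in cluster 6, led by Hba-a1 (3006 and 709.9 RPKM). Of its 15 genes 11 passed the filter, and none of the 15 was at 0. Those higher in cluster 3 were 4, all of them haemoglobin chains, and 2 were higher in cluster 6 (Tfrc and Car1). The megakaryocyte and platelet list summed to 88.7 and 8.62 RPKM, led by Pf4 in both. Of its 10 genes 4 passed the filter, with 3 higher in cluster 3, and none of the 10 was at 0. Pf4, a chemokine stored in platelets, was at 66 and 2.73 RPKM, so the chemokine count above includes platelet genes, and their part was not tested. The endothelial list summed to 38.9 and 15.9 RPKM, and 9 of its 15 genes passed the filter. Of these, 5 were higher in cluster 3, such as the tight junction gene Cldn5 at 7.24 and 0.508 RPKM. The transcription factor Erg, at 0.472 and 2.36 RPKM, was the 1 gene higher in cluster 6. Cdh5, a defining endothelial cadherin, was at 1.35 and 0.252 RPKM. Osteoclast genes were split: Ctsk (294 and 132 RPKM), Acp5 (1.02), Atp6v0d2 (2.32) and Itgb3 (2.56) were higher in cluster 3, Mmp9 and Nfatc1 (-1.37) in cluster 6, and the defining genes Oscar, Dcstamp, Ocstamp and Calcr were at 0.216, 0.109, 0.149 and 0 RPKM in cluster 3. Of the pericyte genes, Rgs5 was higher in cluster 3 (16.3 and 1.23 RPKM) and Cspg4 (NG2) in cluster 6 (13.3 and 51.5 RPKM). Skeletal muscle genes summed to 71.9 and 100.2 RPKM, led by Acta1 in both. In the lists with fewer genes past the filter, plasma cell genes summed to 114 and 144 RPKM, led by Xbp1. Of these 8 genes 4 passed the filter, with 1 higher in cluster 6. Natural killer and innate lymphoid genes summed to 61.5 and 58.5 RPKM. Of these 18 genes 5 passed the filter, with 2 higher in cluster 3, Il1rl1 among them. Eosinophil genes, led by Prg2, summed to 29 and 61.3 RPKM. Dendritic cell genes summed to 23.9 and 44.8 RPKM, with none past 2-fold among the 4 of 10 that passed the filter. Genes of reticular cells and adipocytes summed to 204 and 195 RPKM, and 9 of 14 passed the filter, with 3 higher in cluster 3 and 1 in cluster 6. For the labelled stromal identity, 12 osteoblast markers summed to 31276 and 47079.7 RPKM, more than any list of blood cell genes, with 8 higher in cluster 6 and none at 0. These sums were led by Bglap in cluster 3 and Col1a1 in cluster 6, and the median levels were 118 and 452 RPKM. Such sums weigh the most abundant genes and do not measure the share of stromal cells.

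**Figure D4:**
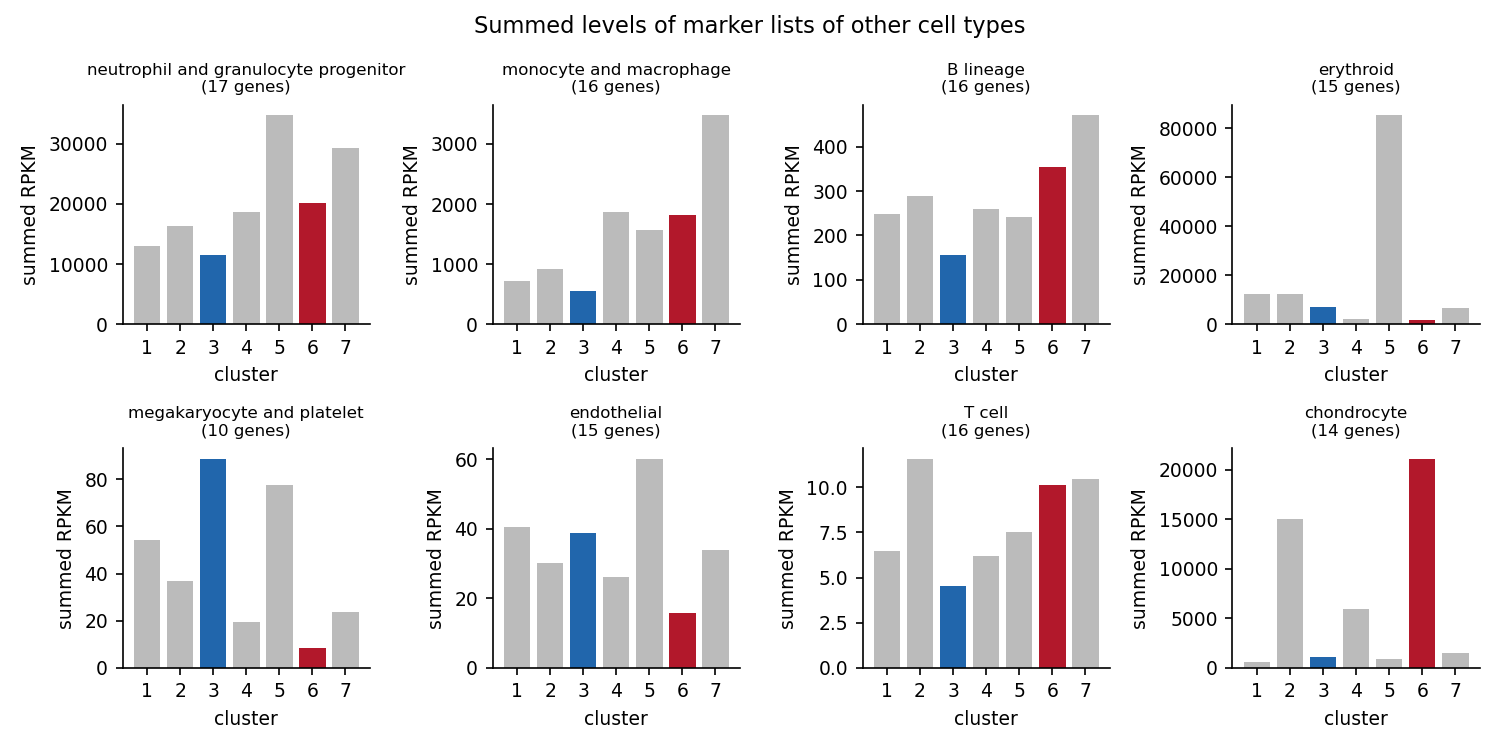
Summed RPKM of the marker genes of 8 other cell types in the 7 sorted libraries, 1 bar per library with no error bar (1 library each), vertical axes starting at 0 and differing between panels; cluster 3 is blue, cluster 6 red, the others grey. Granulocyte, monocyte, B lineage, T cell and chondrocyte sums are higher in cluster 6 than in cluster 3, and erythroid, platelet and endothelial sums are lower (T cell sums 4.54 RPKM in cluster 3 and 10.1 in cluster 6).

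Set against the other 5 sorted libraries, the called genes lay at different ends of the series. Of the 784 genes higher in cluster 3, 369 were highest of 7 there and 528 were lowest of 7 in cluster 6, with 194 meeting both. Of the 874 genes higher in cluster 6, 439 were highest of 7 there, 401 were lowest of 7 in cluster 3, and 130 met both. These ranks use the values that chose the genes and are a description. Both libraries exceeded each of the other 5 by more than 2-fold for 23 genes, which included Bglap, Bglap2, Bglap3, Ifitm5, Dmp1, Dlx3 and Col22a1 (47.1 and 51.2 RPKM in cluster 3 and cluster 6, at most 13.2 elsewhere). Others of the 23 were Entpd3, an ectonucleotidase (27.6 and 47 RPKM, at most 7.83 elsewhere), Cpz, a carboxypeptidase with a Wnt-binding domain (115 and 180.0 RPKM, at most 46.3), Rerg, Ano1, Prss35, Lipc, Bcan, Cdh15, Creb3l3, Kcnk1 and Slc36a2, which were taken from no fixed list. Among the 21 pairs of sorted libraries, this was the second largest number, after the 138 genes of cluster 2 and cluster 6. Both libraries were below each of the other 5 by more than 2-fold for 10 genes, among them Mfap4, a microfibril protein (2.99 and 1.32 RPKM, at least 49.2 elsewhere), Sfrp2 (14.7 and 1.69 RPKM, at least 43.3), Mdk, the growth factor midkine (4.97 and 4.88 RPKM, at least 20.8), and Ostn, the bone peptide osteocrin (1.58 and 0.744 RPKM, at least 4.87). These 10 needed more than 2 RPKM in each of the other 5 libraries instead of the filter used for the 23. Several of them, Ostn included (62 and 28 counts), were below that filter. By the number of genes more than 2-fold apart, the pair ranked 7 of 21.

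**Figure D5:**
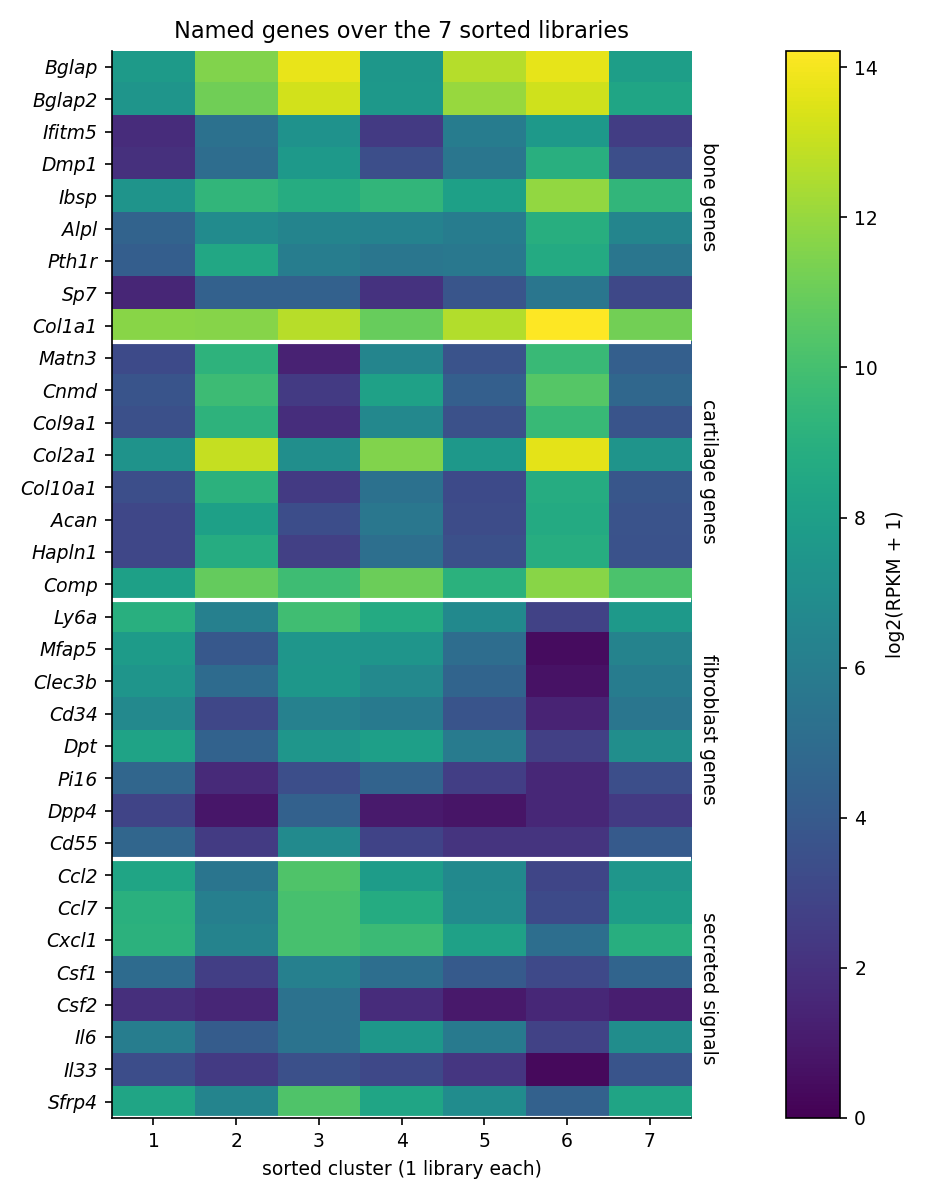
Levels of 33 named genes as log2(RPKM + 1), colour scale at the right, in the 7 sorted libraries (columns, 1 library each), grouped as bone genes, cartilage genes, fibroblast genes and secreted signals. Osteocalcin genes, Ifitm5 and Dmp1 are bright in both cluster 3 and cluster 6. Most cartilage genes are bright in cluster 2 and cluster 6 and dark in cluster 3. Comp, the most abundant chondrocyte gene of cluster 3, is not dark there. Fibroblast genes and chemokines are darkest in cluster 6.

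At the threshold, the genes only just called higher in cluster 3 included Heca (4.47 and 1.73 RPKM), and those that only just missed the call were Brd1 (4.08 and 1.55 RPKM) and Sult1a1 (2.29 and 0.652 RPKM). On the cluster 6 side Gpr160 (0.971 and 2.94 RPKM) and Hlx (2.92 and 6.84 RPKM) were only just called, and Pdk3 (9.47 and 19.9 RPKM) and Gatm (3.13 and 7.27 RPKM) only just missed the call. For scale, the widely used reference genes Hprt, Actb and Gapdh, chosen after their values were seen, were at 60.1 and 58 RPKM, at 818 and 985 RPKM and at 149 and 207 RPKM in cluster 3 and cluster 6.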

How the data were processed

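RNA-seq of 7 sorted mouse bone marrow stromal populations and 1 input sample was available, with 1 library each. The deposited files hold raw counts per Ensembl gene with its exon length. According to the methods, the authors trimmed reads, aligned them with TopHat2 to mm9 in Partek Flow (version 2.2, from the submitters' processing notes) and used RPKM. The coordinates in the files match GRCm38. The counter and its strand setting are not given in the sources used here. Symbols were matched for 38502 of 49315 genes, 32464 by Ensembl ID and 6038 by position on RefSeq (GRCm38.p6, both ends within 1000 bases).

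RPKM was computed from the counts with TMM factors (edgeR 4.0.16) over the 7 sorted libraries, 1.02 for cluster 3 and 0.835 for cluster 6. Because each population had 1 library, no test across genes was run. Ratios of RPKM + 1 were described for genes above 2 RPKM with 50 or more counts in at least 1 library. The code was tested on simulated data. Named genes were the 5 markers, all members of 6 lists, members past 2-fold of the other lists or, where these were many, those with the largest ratios, the 20 highest and 20 lowest ratios, the 5 most abundant genes per library and genes at the threshold. Other genes named were chosen after their values were seen. The members and the lists were chosen with earlier results of these data known, and the SOX and NF-kB motifs after values were seen. Alternatives comprised other scalings, filters, pseudocounts and a 4-fold threshold. Of the lists, Ahsp was not matched, and some genes that the rule names are not reported here.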

Additional observations from a re-analysis of the deposited data

How the results depend on the processing

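No paired analysis was possible because the populations compared have only 1 library each. With TMM factors 784 genes were higher in cluster 3 and 874 in cluster 6. With the total count the numbers were 1194 and 573, and with a 4-fold threshold 240 and 200. Under the other 8 settings, of which TMM factors without cluster 5 were chosen after seeing the data, the counts stayed within 1.5 times, from 588 to 1081 and from 656 to 1198. The log2 ratio of Ibsp ranged from -3.18 to -2.84, of Alpl from -2.57 to -2.23, of Cd24a from -1.78 to -1.44, of Csf2 from 3.70 to 4.25 and of Bglap from 0.00 to 0.35. The median log2 ratio kept its sign under every setting run in 32 of 43 lists, and among the others the median of haematopoietic progenitor genes went from -0.85 to 1.72, of CD24 binding partners from -0.56 to 0.90 and of osteoclast coupling genes from -0.15 to 0.75 above 5 RPKM and 200 counts. The erythroid median fell from 0.73 to -0.005, near 0, in the setting without abundant loci. That setting left out haemoglobin and mitochondrial genes, Lars2, mmu-mir-689-2 and Rn18s-rs5, with TMM factors computed anew. The medians of the Wnt, BMP and collagen lists turned with the total count. Over all measured members without the filter, the chemokine median was 0.32 and that of osteogenic transcription factors -0.14. The median of the hormone and growth factor receptors turned from -0.78 to 0.10 without the filter. Variation between animals and between sorts cannot be told apart from the difference between the populations with 1 library each, and genes with counts below 50 in both libraries were not described.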

Other observations

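The following genes were chosen after their values were seen. Prg4, which encodes the joint lubricant lubricin, was at 2444 RPKM in cluster 3 (287988 counts) and 427 RPKM in cluster 6 (48320 counts), and the other 5 sorted libraries held 162 to 1055 RPKM. Has1, which makes hyaluronan, was at 1596 and 126 RPKM, against 90.5 to 876 RPKM elsewhere. Htra4, a serine protease, was at 459 RPKM in cluster 3 and 28.2 in cluster 6, with at most 63.9 RPKM in any other library, and Clic5, an intracellular channel protein, at 34.1 and 0.683 RPKM, with at most 7.81 elsewhere. Cluster 3 was the highest of the 7 libraries for Prg4, Has1, Htra4 and Clic5. Hbegf, a ligand of the EGF receptor, was also highest there (323 and 124 RPKM). Within 2-fold were Cilp (637 and 811 RPKM), Cilp2 (167 and 179.6 RPKM) and Lum, the proteoglycan lumican (746 and 865 RPKM). Aspn, the proteoglycan asporin, was at 183 and 16.2 RPKM, and Cytl1, a secreted protein of cartilage, at 203 and 1043 RPKM.

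The share of counts on 3 loci that vary widely in this series (Lars2, mmu-mir-689-2 and Rn18s-rs5) was 1.58% in cluster 3 and 1.41% in cluster 6, and 34.8% in cluster 5. Within this sum the loci differed. The ribosomal RNA locus Rn18s-rs5 was at 2338 RPKM in cluster 3 and 325 in cluster 6, 7.2-fold higher in cluster 3. The locus mmu-mir-689-2 was 2.06-fold higher in cluster 6, and Lars2 was within 2-fold. Haemoglobin took 0.556% and 0.12%, and mitochondrial genes 1.09% and 0.356% of the counts.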
